A study of Homo sapiens with 14 samples.

Results

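The 47 genes described here build, fold, inspect and export proteins of the endoplasmic reticulum (ER), the compartment through which a plasma cell passes every antibody chain it secretes. They were named as a list, out of 20007 protein-coding genes of the GENCODE 44 annotation, and the rule that chose their peaks uses no measured value. For each gene, promoter peaks were the accessible regions within 2500 bp of any of its annotated transcription start sites. Distal peaks were the regions in the gene body or within 20 kb of it that lay outside the promoter windows of all annotated genes, noncoding ones included. By role the genes comprise 9 chaperones, 8 disulfide and prolyl isomerases, 10 factors of ER-associated degradation, 12 factors of translocation and signal peptide cleavage, 4 stress sensors and transcription factors, 2 secreted ER stress proteins and 2 antibody assembly genes.

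Accessible chromatin had been profiled by Omni-ATAC, in which a transposase cuts open DNA, in 14 libraries of 2 established human multiple myeloma (MM) cell lines, and the deposited data were 1 list of reference peaks for each line. For MM.1S, 3 libraries came from the monoculture (MONO), 3 from the upper transwell (TSW) and 3 from the lower chamber (CO). For RPMI8226 there were 1 MONO, 2 TSW and 2 CO libraries. In TSW and CO the MM cells shared medium with HS5, a human bone marrow stromal line. A membrane kept TSW cells apart from HS5, whereas CO cells were in contact with it, and MM cells of every group were sorted as CD38+ and CD90- before the assay. Each line of cells is a single model of the disease, and the labels do not say whether repeats were separate cultures.

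The only value given for a peak was its support, read here as the number of libraries of the line in which the peak was called, from 3 to 9 in MM.1S and from 3 to 5 in RPMI8226. The lists give no depth per library and pool the culture conditions, so accessibility in MONO, TSW and CO could not be compared. Width and support are therefore given side by side for the lines, with no test of the difference. The MM.1S list held 72802 peaks and the RPMI8226 list 79969. Of 8 plasma cell marker genes, 8 had a promoter peak in each line, against 7 and 4 of 10 stromal markers and 4 and 3 of 5 mature B cell markers in MM.1S and RPMI8226. A promoter peak was present for 76.8% and 71.9% of all protein-coding genes. By the study's methods a small remainder of HS5 was present among the cells sorted from the lower chamber, and its part in these peaks was not tested. MS4A1, which encodes the B cell antigen CD20, had no promoter peak in either line.

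Proteins enter the ER through the SEC61 channel, lose their signal peptide, are folded by chaperones and disulfide isomerases, and are returned to the cytosol for destruction when folding fails. When unfolded chains accumulate, the sensors IRE1 (encoded by ERN1), PERK (encoded by EIF2AK3) and ATF6 start the unfolded protein response. Its transcription factors, among them ATF6 and the XBP1 protein made after IRE1 splices its mRNA, raise the genes of this machinery through the ER stress response element (ERSE) of their promoters. Plasma cells depend on this response to secrete antibody, and proteasome inhibitors used against MM load the same system.

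The sequences that this response reads are shown first, because they lie in the promoters whose peaks are described next. In the ERSE, written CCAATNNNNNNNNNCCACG, the CCAAT part binds NF-Y and the CCACG part binds ATF6 or XBP1. RefSeq promoter windows (GRCh38.p14, 250 bases before to 50 bases after the start) were found for 43 of the 47 genes, and PDIA3, DERL1, DERL3 and SPCS1 were not matched. On either strand an ERSE was present in the promoters of 7 of these 43 genes, against 21 of 15345 protein-coding genes, or 0.137%. Those 21 include the 7. The response described above is known to act on such genes through this element, so the shares describe the list and do not test it. The 8 matches are printed in full with the fixed bases in capitals, each read 5′ to 3′ on the strand of the motif, and the strand is given relative to the gene.
HSPA5, same strand, chr9:125241391-125241409: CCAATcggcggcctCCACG
HSP90B1, same strand, chr12:103930216-103930234: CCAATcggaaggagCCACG
HSP90B1, opposite strand, chr12:103930321-103930339: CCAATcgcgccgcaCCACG
CALR, opposite strand, chr19:12938384-12938402: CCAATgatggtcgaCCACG
CANX, same strand, chr5:179698778-179698796: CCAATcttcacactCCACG
PDIA6, same strand, chr2:10812853-10812871: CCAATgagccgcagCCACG
ERO1B, opposite strand, chr1:236282183-236282201: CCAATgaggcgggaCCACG
CRELD2, opposite strand, chr22:49918554-49918572: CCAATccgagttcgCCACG
HSP90B1 alone carried more than 1 match, a pair on opposite strands.

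A shorter form, ERSE-II, written ATTGGNCCACG, was found in 3 of the 43 promoters, against 15 of 15345 genes, or 0.0978%, these 3 included. Its ATTGG is CCAAT read on the other strand. The 4 matches follow in the same way.
HYOU1, opposite strand, chr11:119057380-119057390: ATTGGaCCACG
HYOU1, opposite strand, chr11:119057274-119057284: ATTGGaCCACG
SDF2L1, opposite strand, chr22:21642114-21642124: ATTGGtCCACG
HERPUD1, same strand, chr16:56932025-56932035: ATTGGgCCACG
HYOU1 carried 2 of them, and no gene carried both forms. All 12 matches of either form lay inside a peak in both lines. The genes that carry them all had a peak over the canonical start site in both lines, so this count is not separate from the promoter peaks described below. Over all protein-coding genes, 15 of 20 distinct ERSE positions lay in an MM.1S peak (75.0%) and 13 in an RPMI8226 peak (65.0%). These 20 positions include the 8 of the list. For ERSE-II, 12 of 15 positions lay in a peak in each line (80.0%), the 4 of the list included. A match describes letters in a window and is not a measured binding site.

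**Figure D1:**
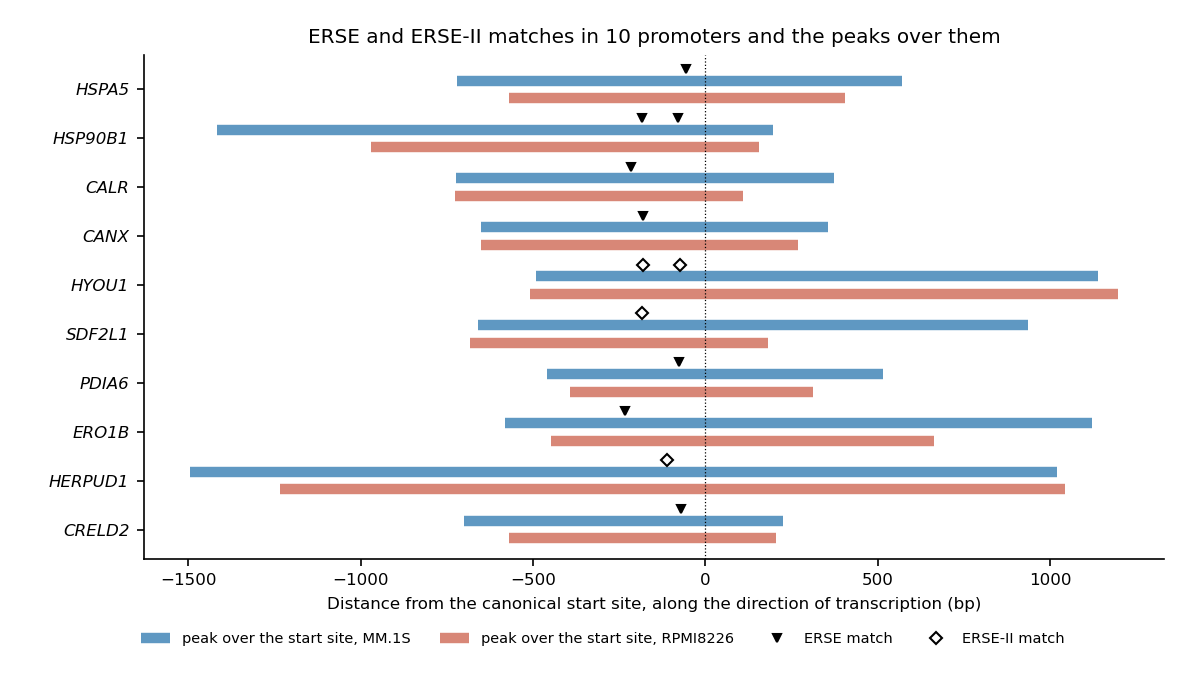
Distance from the canonical start site in bp (x axis) of the ERSE matches (filled triangles) and ERSE-II matches (open diamonds) in 10 promoters, with the peak over the start site in MM.1S (blue bars) and RPMI8226 (red bars). All 12 matches lie upstream of the start site and within the peaks of both lines.

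The remaining motifs were searched on both strands in the same windows. The UPRE core TGACGTG, which XBP1 and ATF6 can bind, was present in 7 of the 43 promoters (HYOU1, TXNDC5, FKBP11, VCP, SEC61A1, SSR3 and SSR4), against 2.80% of 15345 genes. The CCAAT box, which every ERSE and ERSE-II match contains, was present in 36 of 43 promoters, or 83.7%, against 42.5% of genes. The element TGATGNAA, bound by ATF4 with CEBP factors, was present in 2 (HERPUD1 and CREB3L2), or 4.65%, against 3.64% of genes. The promoter windows of the 43 genes had a median GC content of 65.3%, against 62.4% over all coding genes, and a median ratio of observed to expected CpG of 0.89, against 0.74. JCHAIN, which had no CpG in its window, and MZB1, with a CpG ratio of 0.15, stood at the low end.

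The promoter of HSP90B1 (GRP94, the ER member of the HSP90 family) is shown as the one with the most ERSE matches, and that of HERPUD1 because it lay under the widest peak among the 47 genes. JCHAIN is shown as the contrast in composition. HERPUD1 and JCHAIN were chosen for printing after their values were seen. Each run holds the 250 bases before the RefSeq start site, read along the gene, with ERSE or ERSE-II bases in capitals.
HSP90B1, plus strand, chr12:103930160-103930409: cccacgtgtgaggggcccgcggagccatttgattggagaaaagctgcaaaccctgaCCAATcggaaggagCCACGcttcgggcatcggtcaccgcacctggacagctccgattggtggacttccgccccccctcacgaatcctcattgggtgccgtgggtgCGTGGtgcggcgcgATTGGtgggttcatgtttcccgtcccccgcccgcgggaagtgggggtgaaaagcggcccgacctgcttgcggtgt
HERPUD1, plus strand, chr16:56931892-56932141: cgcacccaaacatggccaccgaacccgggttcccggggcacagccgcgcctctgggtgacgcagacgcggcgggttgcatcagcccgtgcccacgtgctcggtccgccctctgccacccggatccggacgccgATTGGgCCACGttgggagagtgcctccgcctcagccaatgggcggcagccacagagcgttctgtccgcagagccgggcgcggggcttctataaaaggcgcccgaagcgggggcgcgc
JCHAIN, minus strand, chr4:70666509-70666758: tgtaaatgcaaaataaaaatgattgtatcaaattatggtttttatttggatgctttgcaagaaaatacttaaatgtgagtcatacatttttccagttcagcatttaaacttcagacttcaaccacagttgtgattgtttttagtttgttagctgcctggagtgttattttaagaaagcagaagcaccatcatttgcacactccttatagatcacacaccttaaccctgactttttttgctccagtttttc
In the HSP90B1 run the second match appears as its reverse complement. The HERPUD1 run had a GC content of 71.6% and 31 CpG, whereas the JCHAIN run had 32.8% and none of the 5 motifs.

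Every gene of the list had a peak within 2500 bp of an annotated start in both lines. For JCHAIN in RPMI8226 this peak lay more than 1000 bp from any of its starts. A promoter peak was present for 47 of 47 genes in MM.1S, where 76.8% of all protein-coding genes had one, and for 47 of 47 in RPMI8226, where 71.9% did. In MM.1S, 46 of 47 had a promoter peak called in all 9 libraries, against 69.3% of genes, and JCHAIN reached a support of 8. In RPMI8226 all 47 had one called in all 5 libraries, against 66.6%. Such a peak need not lie at the canonical start site. The peak there was called in every library for 46 of 47 genes in MM.1S and 44 in RPMI8226. The same share over all genes was not counted. A support of 8 exceeds the 6 coculture libraries of MM.1S, so each gene had a promoter peak called in at least 1 library of every condition in both lines. A promoter peak that overlapped a peak of the other line was present for 47 of 47 genes in each line, against 67.2% of genes in MM.1S and 67.1% in RPMI8226.

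The background of all protein-coding genes includes genes that a myeloma cell does not use, and the list was not compared with other lists of active genes. Among 95 further genes of the same pathway, 95 had a promoter peak in MM.1S, 93 of them in all 9 libraries. In RPMI8226, 92 of the 95 had one, each in all 5 libraries. The 3 without a promoter peak in RPMI8226 were KDELR3, a receptor that returns escaped ER proteins, CLGN, a testis chaperone related to calnexin, and PDIA2, a pancreatic disulfide isomerase. All 12 oligosaccharyltransferase genes and all 14 genes of the COPII coat, which buds vesicles from the ER, had a promoter peak in every library of both lines.

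**Figure D2:**
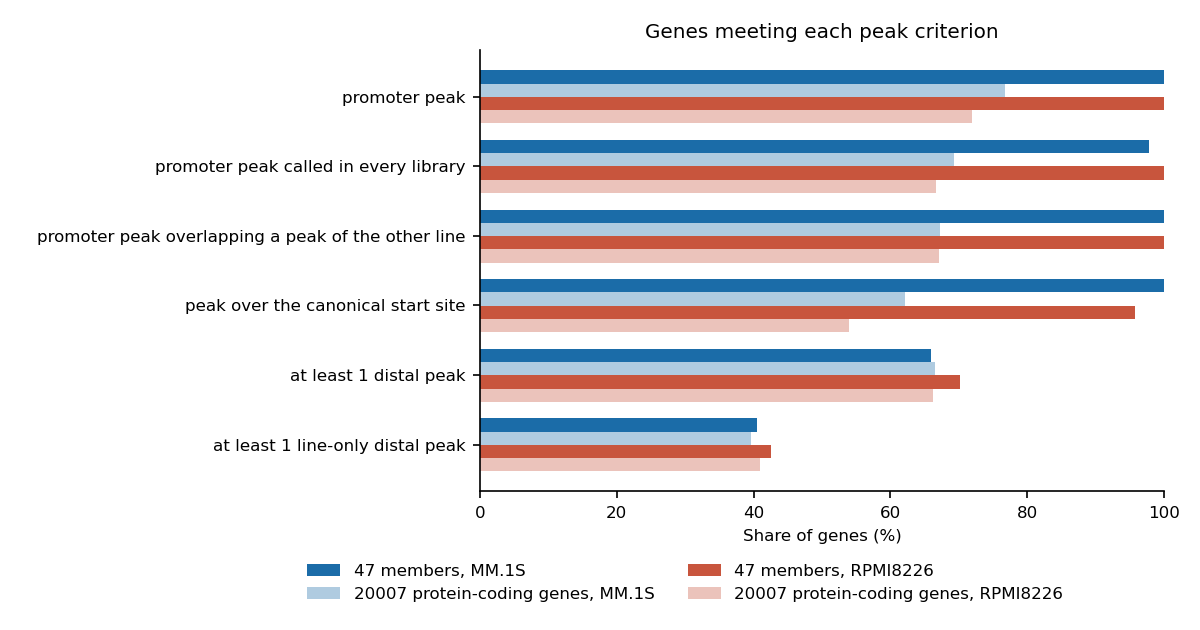
Share of genes in percent (x axis, from 0) that met each peak criterion, for the 47 ER genes (dark bars) and all 20007 protein-coding genes (pale bars) in MM.1S (blue) and RPMI8226 (red). Promoter criteria were met by 95.7 to 100.0% of the 47 genes, whereas the shares with a distal peak lay near those of all genes.

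Peaks also lay at the annotated start itself. The canonical start site fell inside a peak for 47 of 47 genes in MM.1S, against 62.1% of genes, and for 45 of 47 in RPMI8226, against 53.9%. The exceptions in RPMI8226 were P4HB, whose peak began 91 bp upstream of the start site, and JCHAIN. Promoter peaks of the list numbered 89 in MM.1S and 83 in RPMI8226, and 25 and 24 of the 47 genes had exactly 1, against 61.1% and 55.0% of all genes with a promoter peak. The widest promoter peak also lay at the promoter of another coding gene for 14 of 47 genes in MM.1S, against 28.5% of all genes with a promoter peak, and for 15 of 47 in RPMI8226, against 29.1%. DNAJB9 shared its peak with PNPLA8 and THAP5, CRELD2 with ALG12, SPCS1 with GLT8D1 and SEC61B with ALG2, and such a peak cannot be assigned to 1 gene.

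The widest promoter peak of the 47 genes had a median of 1262 bp in MM.1S (95% order-statistic interval over genes 1053 to 1336 bp), against 1047 bp over all 15373 genes with a promoter peak. In RPMI8226 the median was 929 bp (interval 865 to 1053 bp), against 761 bp over 14378 genes. Of the 95 further genes of the same pathway, those with a promoter peak had medians of 1114 bp in MM.1S and 861 bp in RPMI8226. With only peaks called in every library, the list had medians of 1264.5 and 929 bp, against 1084 and 788 bp over all genes. The widest peak was taken over all start sites, of which the list had a median of 8 per gene, against 5 over all genes. For the peak over the canonical start site the MM.1S median was 1181 bp (interval 1028 to 1305 bp), against 1067 bp. In RPMI8226 it was 917 bp (interval 844 to 1048 bp), against 797 bp. By its widest promoter peak, the typical gene of the list stood at percentile 69.9 in MM.1S and 69.2 in RPMI8226. Above the third quartile of all genes lay 17 of the 47 in MM.1S and 20 in RPMI8226. Below the first quartile lay 3 in MM.1S and 1 in RPMI8226. Peaks were wider in MM.1S at most genes of the genome: the MM.1S peak was the wider for 89.5% of 13735 genes with a promoter peak in both lists and for 41 of the 47. The median ratio of MM.1S to RPMI8226 width was 1.15 for the list and 1.29 for all genes, so widths were read within a line.

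**Figure D3:**
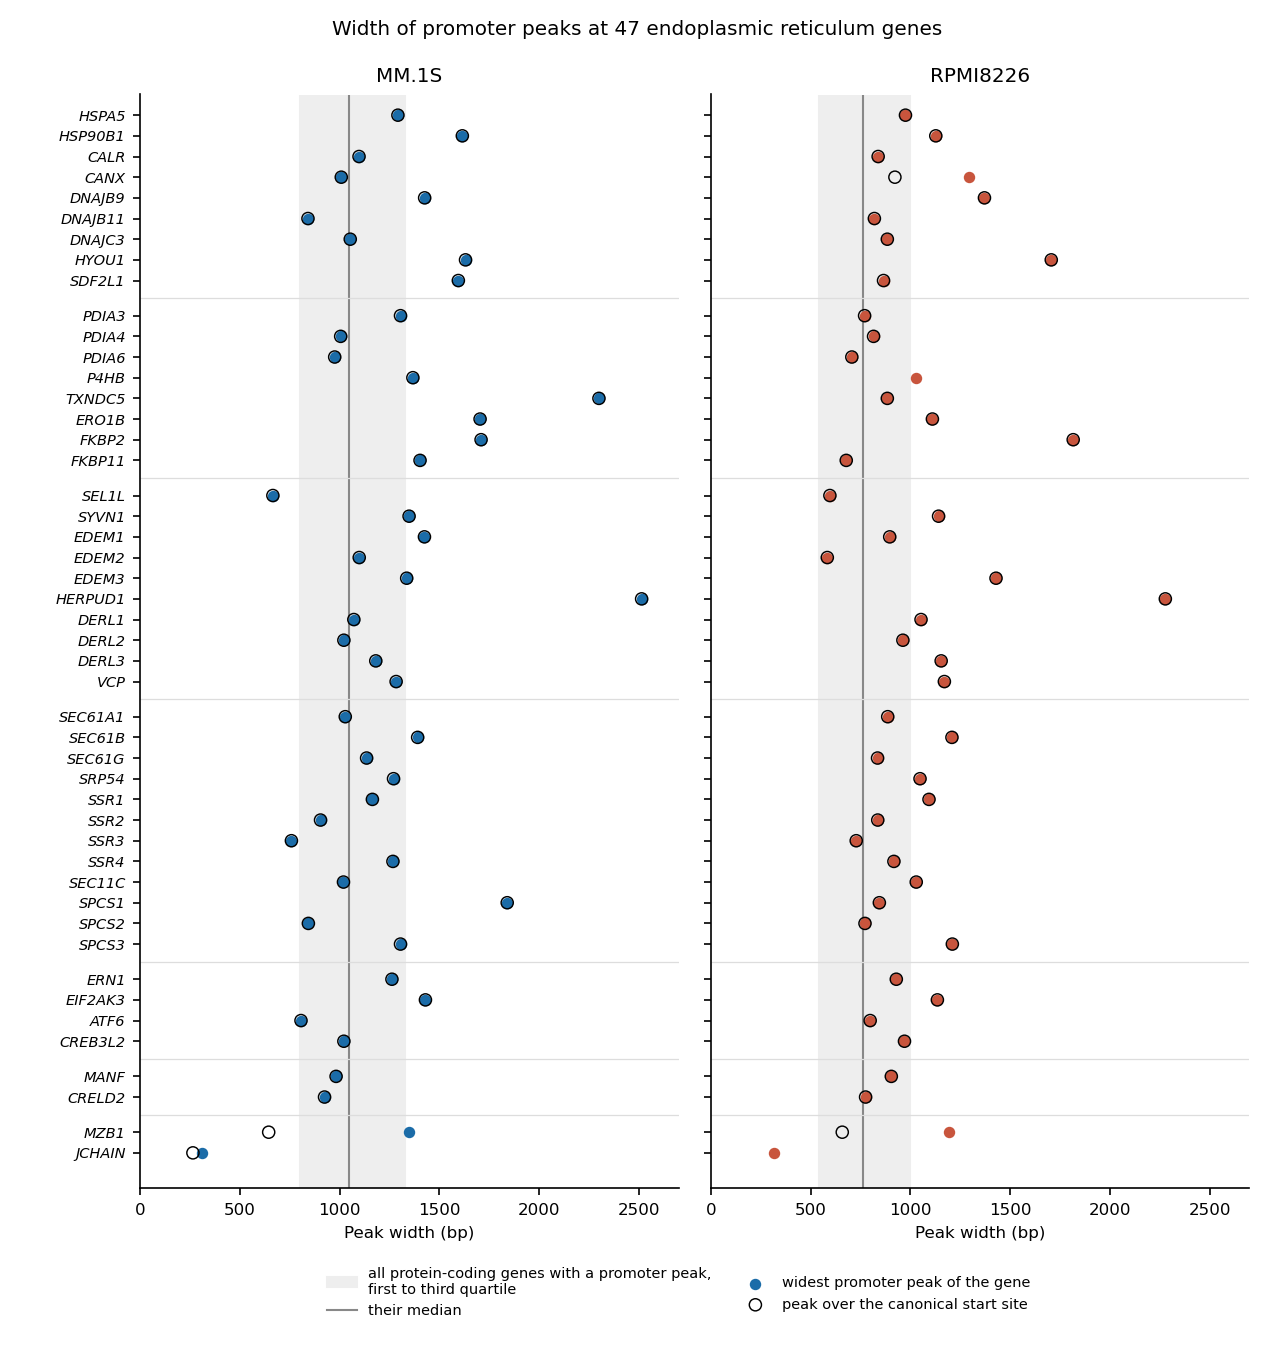
Width in bp (x axis) of the widest promoter peak (filled points) and of the peak over the canonical start site (open circles) for each of the 47 genes, ordered by role, in MM.1S and RPMI8226. The grey band and line mark the quartiles and median of all genes with a promoter peak. HERPUD1 is widest in both lines at 2514 and 2278 bp, and JCHAIN is narrowest at 312 and 314 bp.

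Among the chaperones, the 9 genes had a median width of 1292 bp in MM.1S and 975 bp in RPMI8226, and each widest peak was called in every library. HSPA5, which encodes BiP, the main ER chaperone and the brake on all 3 sensors, had 1292 bp in MM.1S and 975 bp in RPMI8226. HSP90B1 had 1615 and 1127 bp. HYOU1, an ER member of the large HSP70 family, had 1631 and 1706 bp, and was 1 of 6 genes with the wider peak in RPMI8226. CALR and CANX, the lectin chaperones that hold glycoproteins, differed in layout. CALR had 1097 and 838 bp. At the CANX start site the peaks had 1008 and 922 bp, while the widest in RPMI8226 (1295 bp) lay 20.2 kb upstream at a start shared with CBY3. The co-chaperones that steer BiP included both wide and narrow peaks. DNAJB9 had 1426 and 1371 bp, DNAJC3 had 1053 and 884 bp, and DNAJB11 had 841 and 819 bp, at percentile 28.5 in MM.1S. SDF2L1, a partner of DNAJB11, had 1595 bp in MM.1S and 865 bp in RPMI8226.

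The disulfide and prolyl isomerases included the gene with the largest ratio of width between the lines. TXNDC5, a thioredoxin-domain isomerase abundant in plasma cells, had 2300 bp in MM.1S, at percentile 98.9, and 884 bp in RPMI8226, at percentile 64.5. Its peak over the start site was called in 9 of 9 MM.1S libraries but in 4 of 5 RPMI8226 libraries, and its RPMI8226 promoter peak with support 5 (365 bp) lay 3.3 kb downstream. At 7, TXNDC5 also had the most promoter peaks of the list in MM.1S, against 4 in RPMI8226. An MM.1S-only peak of 1182 bp, in all 9 libraries, lay 23.1 kb into the gene at an alternative start. FKBP11, a membrane-anchored prolyl isomerase, had a single peak of 1403 bp in MM.1S, where RPMI8226 had separate peaks of 678 and 395 bp. For FKBP2, a small prolyl isomerase, the order was the other way, with 1709 bp in MM.1S and 1816 bp in RPMI8226, at percentiles 92.0 and 99.4. The remaining isomerases were spread over the range. PDIA3, which works with the lectin chaperones, had 1305 and 770 bp. PDIA4 had 1005 and 815 bp, and PDIA6, which acts with BiP, had 975 and 706 bp. P4HB, the classical protein disulfide isomerase, had 1367 and 1027 bp, and ERO1B, the oxidase that recharges it, had 1704 and 1110 bp, at percentiles 91.8 and 83.3.

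Genes of ER-associated degradation held both a very wide and a narrow promoter. HERPUD1, which assembles the degradation complex in the ER membrane, had 2514 bp in MM.1S and 2278 bp in RPMI8226, at percentiles 99.5 and 99.9, in every library of both lines. In MM.1S it spanned chr16:56930648-56933161, around the start site and the ERSE-II. SEL1L and SYVN1 form the core of the HRD1 ubiquitin ligase. SEL1L had 665 bp in MM.1S, at percentile 14.5, and 596 bp in RPMI8226. SYVN1 had 1348 and 1141 bp. The EDEM lectins, which hand misfolded glycoproteins to this ligase, ranged in MM.1S from 1098 bp (EDEM2) through 1336 bp (EDEM3) to 1425 bp (EDEM1). In RPMI8226 the order was different, with 583 bp for EDEM2, 896 bp for EDEM1 and 1429 bp for EDEM3. DERL1, DERL2 and DERL3, thought to form the channel back to the cytosol, had 1071, 1021 and 1181 bp in MM.1S and 1053, 962 and 1154 bp in RPMI8226. VCP, the ATPase that pulls the chains out, had 1283 and 1170 bp.

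The 12 genes of translocation and signal peptide cleavage had promoter peaks of 758 to 1840 bp in MM.1S and of 728 to 1210 bp in RPMI8226, all in every library. Of the SEC61 channel subunits, SEC61A1 had 1028 and 886 bp, SEC61B 1391 and 1208 bp, and SEC61G 1135 and 835 bp. SRP54, the signal recognition particle subunit that binds the signal peptide, had 1270 and 1048 bp. The translocon-associated SSR subunits were spread over the range. SSR1 had 1164 and 1093 bp, SSR2 904 and 836 bp, SSR3 758 and 728 bp, and SSR4 1267 and 917 bp. Of the signal peptidase genes, SEC11C, a catalytic subunit, had 1019 and 1029 bp, SPCS2 had 843 and 772 bp, and SPCS3 had 1305 and 1210 bp. SPCS1 had 1 peak of 1840 bp in MM.1S, where RPMI8226 had separate peaks of 844 and 353 bp, and a further RPMI8226 peak of 237 bp lay beyond them and overlapped no MM.1S peak.

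The sensors had promoters on both sides of the all-gene median in MM.1S. ERN1 had 1262 bp in MM.1S and 929 bp in RPMI8226, the median values of the list. EIF2AK3 had 1430 and 1135 bp, at percentiles 81.4 and 84.9. ATF6 had 806 and 798 bp, at percentiles 25.3 and 54.7, and CREB3L2, a membrane-bound transcription factor released like ATF6, had 1021 and 970 bp, at percentiles 47.5 and 72.8. The secreted stress proteins MANF, a chaperone cofactor that leaves stressed cells, and CRELD2 had 982 and 924 bp in MM.1S and 904 and 775 bp in RPMI8226. The ERSE-bearing promoters were thus not all wide: in MM.1S HSP90B1 and ERO1B stood at percentiles 89.2 and 91.8, and PDIA6 and CRELD2 at 42.4 and 37.0.

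In MM.1S, the 2 antibody assembly genes had the narrowest peaks over a canonical start site of the whole list. At the MZB1 start site, which drives a plasma cell co-chaperone of BiP, the peaks had 644 bp in MM.1S and 658 bp in RPMI8226, in every library. The wider peaks in its window (1348 and 1195 bp) lay 2.9 kb upstream at the start of PROB1. JCHAIN encodes the chain that joins IgM and IgA into polymers. Its widest promoter peak, 312 bp in MM.1S and 314 bp in RPMI8226, was at percentile 1.4 and 6.8 of all genes. It lay 13.7 kb upstream of the canonical start (chr4:70680035-70680346 in MM.1S). This peak was within 2500 bp of an alternative start but more than 1000 bp from any annotated JCHAIN start. At the canonical start, MM.1S had a peak of 264 bp with support 4, too few libraries to place in every condition. It covered 180 of the 250 bases printed. A second MM.1S-only peak of 296 bp, with support 7, lay 1.0 kb upstream. The RPMI8226 list had no peak over the canonical JCHAIN start site.

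Beyond the promoters, the list looked much like other genes in whether it had distal peaks at all. At least 1 distal peak was present for 31 of 47 genes in MM.1S, against 66.5% of all genes, and for 33 of 47 in RPMI8226, against 66.3%. At least 1 line-only distal peak, defined as overlapping no peak of the other line, was present for 19 of 47 in MM.1S, against 39.6%, and for 20 of 47 in RPMI8226, against 41.0%. The median was 2 distal peaks per gene in each line, against 1 over all genes. With only peaks called in every library, it was 0 in MM.1S and 1 in RPMI8226, the same as over all genes. Per 100 kb of territory it was 2.15 in MM.1S, against 1.50 over all genes, and 2.28 in RPMI8226, against 1.53. A distal peak within 20 kb of a gene is close to it in position, and its target is not known.

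**Figure D4:**
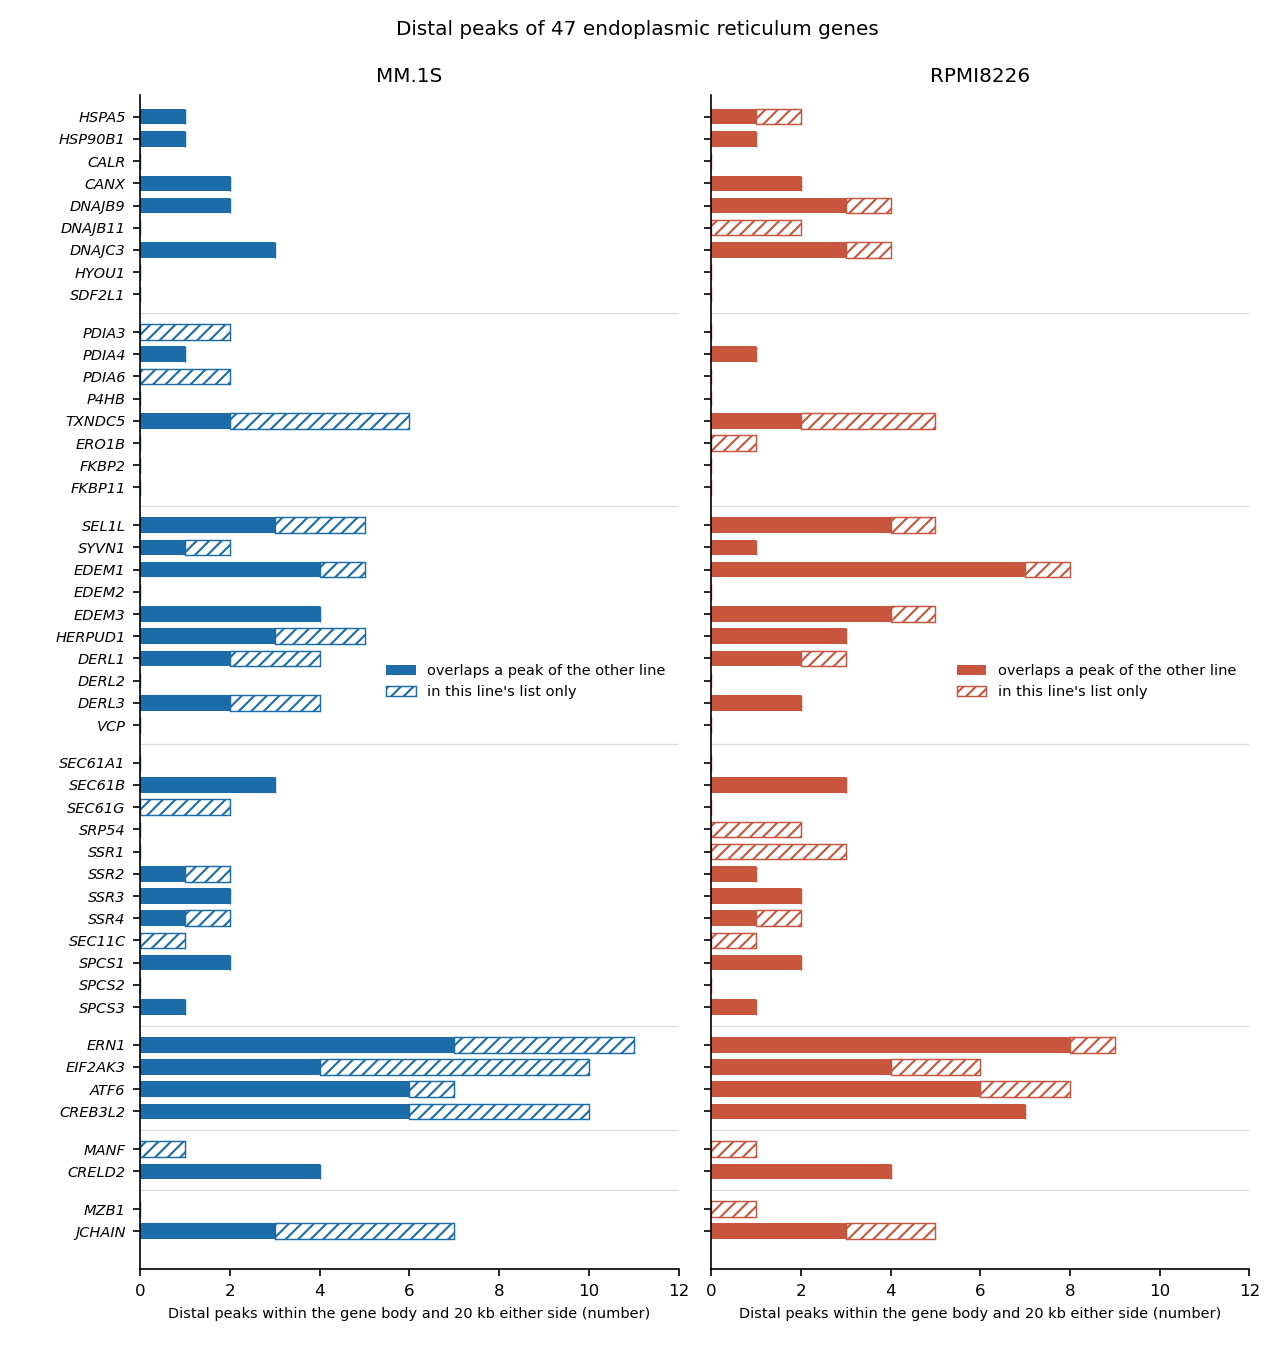
Number of distal peaks (x axis) of each of the 47 genes in MM.1S and RPMI8226, split into peaks that overlap a peak of the other line (solid) and peaks in 1 list only (hatched). ERN1 has the most in both lines, with 11 and 9. At least 1 distal peak is present for 31 of 47 genes in MM.1S and 33 in RPMI8226, against 66.5% and 66.3% of all genes.

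Distal peaks of the list numbered 114 in MM.1S and 107 in RPMI8226. In MM.1S, 62.3% of them overlapped an RPMI8226 peak (Wilson interval 53.1 to 70.6%), against 60.6% of distal peaks near any coding gene. In RPMI8226, 72.9% overlapped an MM.1S peak (interval 63.8 to 80.4%), against 56.3%. Where several RPMI8226 peaks overlapped the same wider MM.1S peak, as at EDEM1, ERN1 and SEL1L, each was counted as shared. When an overlap of 50% of both peaks was required, the shares were 49.1% in MM.1S, against 48.0%, and 52.3% in RPMI8226, against 43.3%. Intervals treat peaks as independent and cover counting error only. The median width of distal peaks was 524.5 bp in MM.1S, against 476 bp near all genes, and 352 bp in RPMI8226, against 326 bp. No distal peak of the list held an ERSE or ERSE-II. A support of 6 or less, which coculture libraries alone could reach, was found for 38 of 114 distal peaks in MM.1S, or 33.3%, against 32.9% near all genes. A support of 4 or less in RPMI8226 was found for 41 of 107, or 38.3%, against 40.8%.

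By role, the distal peaks were spread unevenly. The 4 stress sensors and transcription factors had 38 distal peaks in MM.1S and 30 in RPMI8226, with a median of 10 and 7.5 per gene. The 9 chaperones had 9 and 15, none of them line-only in MM.1S and 5 line-only in RPMI8226. The 8 isomerases had 11 and 7. TXNDC5 held 6 and 5 of these. The 10 degradation genes had 29 and 27, and the 12 translocation and cleavage genes 15 and 17. In each line alone, the share of the list with a distal peak lay near that of all genes. No distal peak in either list was found for 11 genes, and the same share over all genes was not counted. These 11 were CALR, HYOU1, SDF2L1, P4HB, FKBP2, FKBP11, EDEM2, DERL2, VCP, SEC61A1 and SPCS2. Among them, HYOU1 and FKBP2 had promoter peaks at percentiles 98.8 and 99.4 of width in RPMI8226. Genes differ in length and in how close their neighbors lie, and long genes have more territory in which a peak can fall.

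The 6 genes with the most distal peaks over both lists (ERN1, CREB3L2, EIF2AK3, ATF6, EDEM1 and JCHAIN) held 43.9% of the list's distal peaks in MM.1S and 40.2% in RPMI8226. With only peaks called in every library, these genes in the same order had 5, 5, 2, 3, 4 and 2 in MM.1S. In RPMI8226 they then had 7, 2, 4, 4, 4 and 2. With peaks of any support, ERN1, the IRE1 gene, had 11 in MM.1S and 9 in RPMI8226, at percentiles 98.9 and 95.9 of distal peaks per 100 kb. Shared distal peaks ran along its body from 8.7 to 68.7 kb downstream of the start site in MM.1S, and of these 5 were called in all 9 libraries. The widest had 1235 bp at 53.6 kb and 1132 bp at 38.4 kb. At the latter RPMI8226 had separate peaks of 269 and 168 bp. The 4 MM.1S-only peaks at ERN1 had a support of 3 or 4.

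CREB3L2 had 10 distal peaks in MM.1S and 7 in RPMI8226. All 7 in RPMI8226 overlapped an MM.1S peak, whereas MM.1S had 4 peaks of its own, and these lay side by side inside the gene. Going downstream they were 485 bp wide at 9.1 kb, 747 bp at 14.0 kb, 182 bp at 15.1 kb and 929 bp at 20.2 kb. Their support was 8, 9, 4 and 9. The peaks of 747 bp (chr7:137987702-137988448) and 929 bp (chr7:137981453-137982381) were thus called in every MM.1S library, and neither overlapped an RPMI8226 peak.

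EIF2AK3, the PERK gene, had 10 distal peaks in MM.1S and 6 in RPMI8226, of which 6 and 2 were line-only. Its annotated body reaches to a start 64.1 kb upstream of the canonical one, shared with RPIA, so that peaks at negative distances count as inside the gene. The MM.1S-only peaks included 585 bp at 11.4 kb with support 9, and 458 and 388 bp at 19.0 and 20.7 kb with support 8. RPMI8226-only peaks of 335 and 189 bp, both with support 5, lay 11.5 and 24.9 kb upstream.

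ATF6 had 7 distal peaks in MM.1S and 8 in RPMI8226, and 6 in each line overlapped a peak of the other. The nearest, 6.5 kb downstream, had 1447 bp and support 9 in MM.1S and 496 bp and support 4 in RPMI8226. Its gene is long, and its distal density was at percentiles 75.6 and 76.5, below those of ERN1.

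EDEM1 had 5 distal peaks in MM.1S and 8 in RPMI8226, and held the widest of the list in MM.1S. A peak of 1724 bp with support 6, 33.4 kb downstream of the start and just past the end of the gene, faced 3 RPMI8226 peaks of 323, 635 and 211 bp. Another of 1662 bp with support 9, at 25.4 kb, faced 2 of 354 and 329 bp. Over both stretches RPMI8226 had more peaks, and each was narrower. Farther out, at 43.7 kb, an MM.1S-only peak of 978 bp was called in all 9 libraries.

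JCHAIN had 7 distal peaks in MM.1S and 5 in RPMI8226, and its distal density was at percentile 99.7 in MM.1S and 97.3 in RPMI8226, in contrast to its narrow promoter peaks. Of these distal peaks, 2 in each line were called in every library. Peaks at 6.1 kb downstream and at 11.1 and 12.0 kb upstream of the canonical start were shared by the lines. The peak at 6.1 kb had 529 bp and support 9 in MM.1S and 400 bp and support 4 in RPMI8226. The others were each in 1 list only, with 4 in MM.1S and 2 in RPMI8226. MZB1 had no distal peak in MM.1S and 1 of 261 bp in RPMI8226, 17.8 kb upstream, with support 5.

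**Figure D5:**
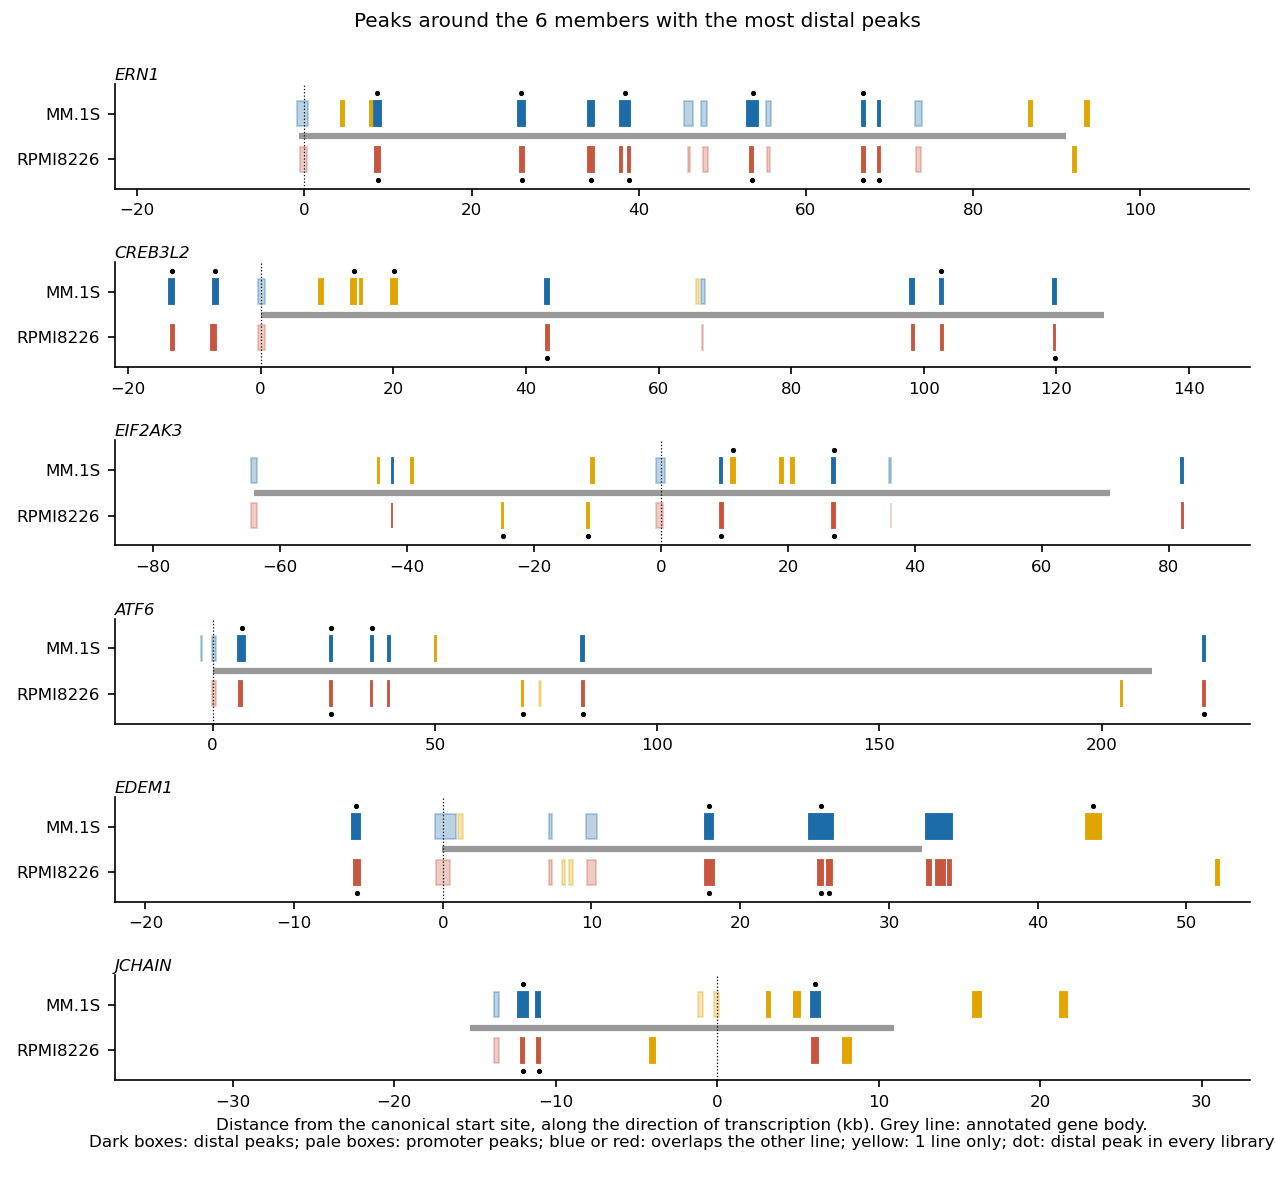
Peaks in MM.1S (upper row) and RPMI8226 (lower row) around ERN1, CREB3L2, EIF2AK3, ATF6, EDEM1 and JCHAIN, drawn to scale by distance from the canonical start site in kb (x axis, each gene on its own scale). Dark boxes are distal and pale boxes promoter peaks, yellow marks peaks in 1 list only, and dots mark distal peaks called in every library. Peaks that lie only in promoter windows of other genes are not drawn. CREB3L2 shows 4 yellow MM.1S peaks between 9.1 and 20.2 kb.

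Among the distal peaks of the list, those wider than 1000 bp were found in MM.1S only, 12 in all, at 8 genes. Distal peaks near all coding genes were also wider in MM.1S, with a median of 476 bp, against 326 bp in RPMI8226. Near all genes they reached 2203 bp in RPMI8226, and the share over 1000 bp was not counted. Besides the pairs at EDEM1 and ERN1 and the peak of ATF6, TXNDC5 had 1288 bp at 32.1 kb and 1186 bp 6.6 kb upstream. HERPUD1 had 1282 bp at 19.0 kb and 1014 bp 20.2 kb upstream. SEL1L, with its narrow promoter, had 1370 bp at 63.2 kb. DERL1 had 1181 bp at 46.9 kb, and SPCS3 had 1012 bp 11.0 kb upstream. All 12 overlapped a narrower RPMI8226 peak, and 10 of them were called in all 9 MM.1S libraries.

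The central 300 bases of 2 distal peaks are shown, as the widest peak found in the MM.1S list only and the widest shared peak. Both are on the plus strand of hg38, with CCAAT boxes in capitals, on either strand.
MM.1S-only, EDEM1, chr3:5231306-5231605: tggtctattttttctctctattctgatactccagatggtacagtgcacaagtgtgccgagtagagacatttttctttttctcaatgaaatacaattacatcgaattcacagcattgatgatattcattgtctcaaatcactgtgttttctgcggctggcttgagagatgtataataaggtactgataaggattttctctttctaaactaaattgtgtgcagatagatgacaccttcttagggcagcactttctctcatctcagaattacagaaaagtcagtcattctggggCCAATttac
Shared, EDEM1, chr3:5220911-5221210: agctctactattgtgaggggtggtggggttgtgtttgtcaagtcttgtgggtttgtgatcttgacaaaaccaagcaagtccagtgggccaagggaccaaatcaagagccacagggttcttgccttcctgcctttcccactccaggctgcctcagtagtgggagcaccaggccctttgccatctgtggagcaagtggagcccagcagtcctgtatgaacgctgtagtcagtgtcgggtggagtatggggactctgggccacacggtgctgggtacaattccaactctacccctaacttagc
The peaks they come from had 978 and 1724 bp, with a support of 9 and 6 of 9 libraries. Their GC contents were 37.3% and 54.7%, both below the 65.3% of the typical promoter window of the list. Of the 5 motifs, the MM.1S-only run held 1 CCAAT box, and the shared run held none.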

How the data were processed

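Nuclei of sorted MM cells were assayed by Omni-ATAC. Per the study's methods and the submitters' processing notes, the authors aligned paired-end reads to hg38 with Bowtie2, removed reads mapping to several places, kept 1 read per position and called peaks with MACS3. A peak entered the list of its line when present in at least 3 libraries. The peak-calling threshold, the joining of boundaries between libraries and any shift of reads are not given in the sources used here. The deposited lists give each peak's position and 1 whole number in a unit other than reads, without header. Its range equals the authors' minimum and the number of libraries of the line, so it was read as support. Starts were read as counted from 0, as in BED files, and are printed counted from 1.

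Sample titles gave the line and the culture of each library. Peaks were assigned to 20007 protein-coding genes of GENCODE 44 with Python 3.11.15, numpy 2.4.6, pandas 2.3.3, scipy 1.17.1 and pysam 0.24.0, with figures by matplotlib 3.10.9. The canonical start site is that of the Ensembl canonical transcript. Peaks of the lines were shared when they overlapped by 1 bp or more. Shares carry 95% Wilson intervals, and medians 95% order-statistic intervals over genes. The assignment was tested on simulated data. The planned edgeR test of TSW and CO against MONO needs read counts and was not run, and each line has 1 list, so there is no replicate error and no test between lines.

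The members and the lists of other genes were chosen with earlier results of these data known. All 47 genes are named with promoter width and support. Distal peaks are described for the 6 genes with the most over both lists, the antibody assembly genes and any distal peak over 1000 bp. Details of other genes were picked after their values were seen. Alternatives changed the promoter window, the start sites used, the minimum support, the overlap, the distal territory and the ERSE rule. The sequence of the widest distal peak in the RPMI8226 list only is not reported here.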

Additional observations from a re-analysis of the deposited data

How the results depend on the processing

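No paired analysis was possible because the lists hold no value for a single library, and for the same reason no replicate could be left out. The counts of genes with a promoter peak, with one called in every library and with one shared between lines stayed between 45 and 47 of 47 in every alternative, and the median promoter width stayed within its interval. Limiting promoters to the canonical start site, or to 1000 bp around any start, left RPMI8226 with 46 genes, JCHAIN being the one lost. The median number of distal peaks per gene followed its definition. It was 0 in both lines within the gene body alone, 4 in MM.1S and 3 in RPMI8226 with 50 kb of flank, 3 in both when peaks at promoters of other genes were counted, and 2.15 and 2.28 per 100 kb. With peaks called in every library only, it was 0 in MM.1S and 1 in RPMI8226, and over all genes it was also 0 and 1. Over all genes the median was 0 within the gene body, and 2 in both lines with 50 kb of flank or when peaks at promoters of other genes were counted. The share of distal peaks shared between lines fell to 49.1% in MM.1S and 52.3% in RPMI8226 when 50% of both peaks had to overlap, and to 48.5% in RPMI8226 when both lists were limited to peaks called in every library, against 44.1% over all genes. With 1 mismatch allowed, 13 promoters held an ERSE, against 2.35% of all genes. In the window from 1000 bp before to 200 bp after the start site 8 did, SYVN1 being the gene added. Over all genes 28 of 15345 did, or 0.182%, these 8 included. Peaks without read counts limit what can be said: width and support can move with depth, which the study gives for each library and which was not used here, and with how boundaries were joined, which is not stated.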
